A study of Mus musculus with 32 samples.

Results

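Levels of 10 genes that mark cortical interneurons were followed through 32 libraries: the genes for GABA synthesis and packaging *Gad1*, *Gad2* and *Slc32a1*, the transcription factor *Lhx6*, the calcium-binding proteins *Pvalb* and *Calb2*, and the secreted products *Sst*, *Vip*, *Npy* and *Reln*. They were chosen by name, are 10 of the 24062 genes in each count table, and all 10 passed the filter on low counts in every fit. The libraries come from S100a10 bacTRAP mice of 1 founder line (ES691), in which an EGFP-tagged ribosomal protein L10a is driven by *S100a10* regulatory elements, and every group carried this transgene. Translating ribosome affinity purification (TRAP) with antibodies to EGFP recovers RNA bound to the tagged ribosomes, and input is RNA of the whole cortical homogenate before that step. Each library pooled the cortices of 3 adult male mice, dissected free of hippocampus and striatum. The groups were single-housed mice on fluoxetine that were anxious in the open field (Sh + Flx anxious), single-housed mice on fluoxetine with behavior labelled normal (Sh + Flx), single-housed mice on vehicle (Sh) and group-housed littermates on vehicle (Gh). Fluoxetine, a serotonin reuptake inhibitor, was given at 0.167 g/L in the drinking water for 21 days. Each group had 4 TRAP and 4 input libraries, and Gh TRAP 2 and 3, whose counts differed by little more than sampling noise (mean chi-square 1.13 per gene, against 2.17 or more in every other pair of replicates), were summed and counted as 1 sample. The study describes the libraries of a condition as biological replicates, and the labels do not say how the pools were formed. By correlation of deviations from group means, replicates 1 and 4, and 2 and 3, were most alike in all 8 sets of 4 libraries. These pairs were therefore also summed as an alternative. By chi-square, Sh + Flx anxious TRAP 1 and 2 (37.6) were closer than 1 and 4 (46.3). Sh TRAP 1 and 4 had the chi-square of 2.17.

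Interneurons are the inhibitory cells of the cortex. They make GABA from glutamate with the decarboxylases GAD67 and GAD65, the products of *Gad1* and *Gad2*, and load it into vesicles with the transporter VGAT, the product of *Slc32a1*. Those born in the medial ganglionic eminence need *Lhx6* and mature into fast-spiking cells with parvalbumin, which inhibit cell bodies and axons, or into cells with somatostatin, which inhibit dendrites. Those born in the caudal ganglionic eminence include the cells with vasoactive intestinal peptide or calretinin (*Calb2*), many of which inhibit other interneurons, and the reelin-positive cells of the superficial layers. The study describes the S100a10 cells targeted in this line as corticostriatal pyramidal neurons, which are excitatory projection neurons. On that description the 10 genes mark a population other than the targeted one. Most projection neuron markers were also lower in TRAP, as given below.

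The promoters of 4 members to which the results below return are shown, since the peptides somatostatin and VIP are known for cAMP response elements close to their starts. The sequences are the 120 bases before the start on the gene's own strand in RefSeq GRCm38.p6, 5′ to 3′, with a match to TGACGT or its reverse complement ACGTCA in capitals, extended to the full palindrome TGACGTCA where present.
Sst (chr16:23890845-23890964, minus strand): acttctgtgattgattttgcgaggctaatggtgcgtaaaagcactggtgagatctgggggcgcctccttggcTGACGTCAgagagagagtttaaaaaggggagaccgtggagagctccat
Vip (chr10:5639098-5639217, plus strand): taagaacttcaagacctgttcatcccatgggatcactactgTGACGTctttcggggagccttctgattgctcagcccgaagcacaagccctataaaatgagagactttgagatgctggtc
Npy (chr6:49822590-49822709, plus strand): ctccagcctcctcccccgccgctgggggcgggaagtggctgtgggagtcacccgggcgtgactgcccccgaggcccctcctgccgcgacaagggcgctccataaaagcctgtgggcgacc
Gad2 (chr2:22622207-22622326, plus strand): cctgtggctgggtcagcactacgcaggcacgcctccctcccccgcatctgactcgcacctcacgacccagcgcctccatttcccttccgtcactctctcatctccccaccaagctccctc
In *Sst*, *Vip* and *Gad2* this start lies inside the gene's annotated span, which holds a further start upstream. The full element began 48 bases before the *Sst* start and the shorter form 79 bases before the *Vip* start, and these letters were not in the printed windows of *Npy* and *Gad2*. Over windows of 250 bases on both strands, 1.55% of 32851 promoters held TGACGTCA and 6.47% held TGACGT, which includes it. Of the 9 members with a promoter entry, the full element was found in *Sst* alone, and the shorter form in *Sst* and *Vip*.

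The members lie on 7 chromosomes of GRCm38, which the files call mm10. *Gad1* (chr2:70561303-70602014), *Gad2* (chr2:22621015-22693877), *Slc32a1* (chr2:158607260-158615747) and *Lhx6* (chr2:36081950-36105992) are on chromosome 2. *Pvalb* is at chr15:78191112-78206400, *Calb2* at chr8:110142526-110168212, *Sst* at chr16:23889573-23891342, *Vip* at chr10:5639193-5647617, *Npy* at chr6:49822710-49829507 and *Reln* at chr5:21884454-22344705. None shares exon bases with another RefSeq gene.

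Each TRAP library held between 9776244 and 64788703 counts in genes, and each input library between 19265435 and 34515281. Levels are given as TMM-scaled CPM, a gene's count relative to the library total after edgeR's correction for composition. *S100a10*, the gene whose elements drive the tag, had 11.9 to 68.4 CPM in TRAP and 5.76 to 11.01 CPM in input libraries, and was higher in TRAP by 2.71 ± 0.15 on the log2 scale (SE, edgeR adjusted p = 1.47e-16). Sh TRAP 2 and 3 stood apart: their *S100a10* levels were 19.1 and 11.9 CPM, against 39.6 to 68.4 CPM in the other 13 TRAP libraries. Their summed level of 6 nuclear noncoding RNAs was 31800 and 53801 CPM, against 3945 to 10163 CPM in the other TRAP libraries and 38680 to 63646 CPM in input. Without these libraries the log2 fold change of *S100a10* was 2.95, and results whose call or direction they changed are given with and without them. Sh TRAP then rests on the closely alike libraries 1 and 4, counted as 2 samples. Their log2 counts correlated at 0.9972, against 0.9974 in the summed Gh TRAP 2 and 3. Adjusted p-values without Sh TRAP 2 and 3 treat libraries 1 and 4 as independent. They could be too small if these libraries shared a pool, which the labels do not say. Of 12 projection neuron markers, 2 were higher and 10 lower in TRAP than in input, while all 6 meningeal fibroblast markers were higher, with sums of 939.6 to 2914 CPM in TRAP and 48.0 to 122 CPM in input.

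All 10 interneuron markers were lower in TRAP than in input in the mean over the 4 groups. *Npy*, *Pvalb* and *Calb2* had the largest differences and *Gad1* and *Reln* the smallest, and the medians of the log2 fold changes were -1.13 over the members and -0.07 over all genes. Of the 17015 genes tested, 69.7% were called in this comparison at an adjusted p under 0.05, and 37.4% were called lower. Every member had counts in every TRAP library, and *Calb2*, the lowest, had 22 to 189 raw counts per TRAP library. For differences between groups in bulk RNA, fewer cells of a type and less RNA per cell cannot be told apart.

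**Figure D1:**
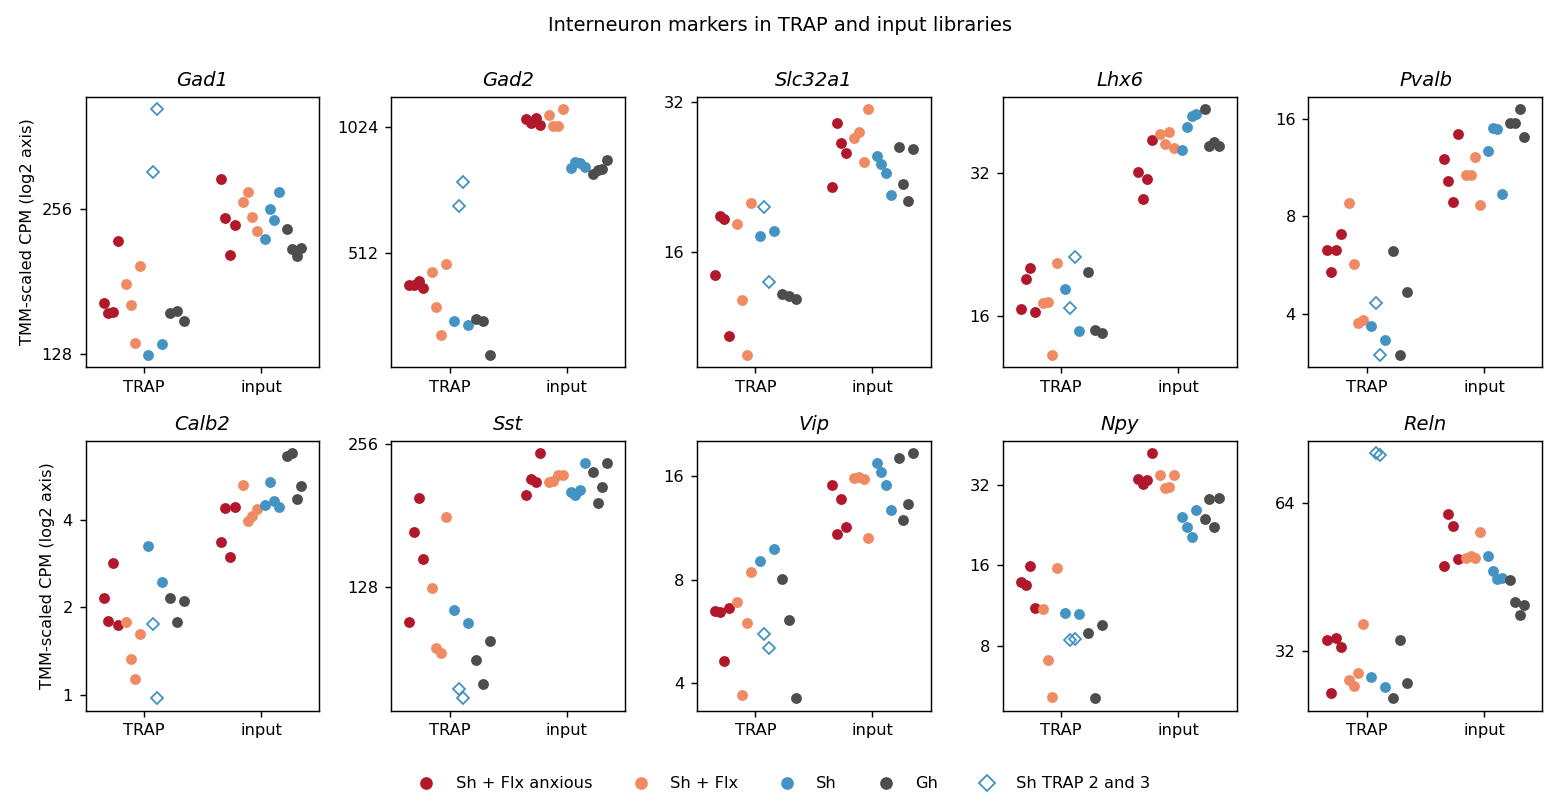
TMM-scaled CPM (log2 axis) of the 10 markers in each library, TRAP at the left and input at the right of each panel. Points are libraries colored by group, and open diamonds are Sh TRAP 2 and 3. These sit above the input range for *Gad1* and *Reln* and below it for every other marker.

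Among the genes for GABA itself, *Gad2* showed the widest gap. *Gad2* had 291, 421 and 756 CPM (lowest, median, highest) in the 15 TRAP libraries, against 788, 944 and 1129 CPM in the 16 input libraries, with no overlap and a log2 fold change of -1.16 ± 0.08 (SE, adjusted p = 3.8e-14). *Gad1* had 127, 157 and 411 CPM in TRAP and 205, 239.6 and 295 CPM in input. The ranges of *Gad1* overlapped through Sh TRAP 2 and 3 and Sh + Flx anxious TRAP 4, and its log2 fold change was -0.40 ± 0.11 (adjusted p = 0.00181). Without Sh TRAP 2 and 3, *Gad1* was at 219 CPM or below in TRAP, with a log2 fold change of -0.55 ± 0.06 (adjusted p = 1.98e-10). *Slc32a1* had 9.98, 14.4 and 20.1 CPM in TRAP and 20.3, 25.1 and 30.9 CPM in input, again with no overlap, and its log2 fold change was -0.71 ± 0.09 (adjusted p = 2.63e-08). The 95% intervals of *Gad2* (-1.33 to -0.99) and *Gad1* (-0.63 to -0.18) did not overlap. The ratio of *Gad1* to *Gad2* CPM was 0.357, 0.415 and 0.544 in TRAP, against 0.19, 0.257 and 0.337 in input. Every TRAP library was above every input library in this ratio, which was chosen after the values were seen and was not tested.

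The markers of cells from the medial ganglionic eminence were all lower in TRAP. *Lhx6* had 13.3, 17.0 and 21.3 CPM in TRAP and 28.3, 37.0 and 43.5 CPM in input, without overlap, a log2 fold change of -1.10 ± 0.07 (adjusted p = 2.42e-15). *Pvalb* had 2.99, 4.67 and 8.77 CPM in TRAP and 8.67, 12.5 and 17.1 CPM in input, and its log2 fold change was -1.37 ± 0.12 (adjusted p = 8.82e-12). Its ranges touched in the Sh + Flx group, where TRAP 1 was at 8.77 CPM and input 4 at 8.67 CPM. *Sst* had 74.7, 107 and 197 CPM in TRAP, against 192, 213 and 245 CPM in input, a log2 fold change of -0.93 ± 0.08 (adjusted p = 2.04e-11), and 1 TRAP library, Sh + Flx anxious 3, reached the input range.

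Those of cells from the caudal eminence and the peptides shared with several types followed. *Vip* had 3.62, 6.46 and 9.85 CPM in TRAP and 10.6, 15.1 and 18.7 CPM in input, a log2 fold change of -1.19 ± 0.13 (adjusted p = 6.03e-10). *Calb2*, the calretinin gene, had 0.971, 1.79 and 3.24 CPM in TRAP and 2.98, 4.47 and 6.82 CPM in input, overlapping at the ends, with a log2 fold change of -1.29 ± 0.14 (adjusted p = 1.11e-09). *Npy*, a peptide of neurogliaform and many somatostatin cells, had 5.07, 10.5 and 15.9 CPM in TRAP, against 20.5, 30.0 and 42.4 CPM in input. Its log2 fold change of -1.55 ± 0.11 (adjusted p = 1.23e-13) was the largest drop of the 10, and its ranges did not overlap. *Reln*, the secreted glycoprotein of superficial interneurons, had 25.6, 28.8 and 81.1 CPM in TRAP and 37.8, 48.4 and 60.7 CPM in input, a log2 fold change of -0.45 ± 0.11 (adjusted p = 0.000771). Its 2 highest values were again Sh TRAP 2 and 3. Without them its TRAP libraries reached 36.3 CPM at most, below every input library, with a log2 fold change of -0.61 ± 0.06 (adjusted p = 1.66e-11).

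In all, 5 of the 10 members had every TRAP library below every input library, against 6.01% of all genes, and 6 did without Sh TRAP 2 and 3, against 12.4%. Scaling moved the whole table: the median log2 fold change over all genes was -0.07 with TMM and 0.12 with library size alone, and 46.4% and 60.5% of called genes were then higher in TRAP. All 10 members stayed lower and called under both. When replicates 1 and 4, and 2 and 3, were summed into 2 libraries per group, *Gad1* missed the threshold (log2 fold change -0.39, adjusted p = 0.0525) and the other 9 members did not.

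Compared per length of exon, *Sst* had the highest mean level in both fractions and *Calb2* the lowest. In TRAP libraries, CPM per kilobase averaged 195 ± 64.1 for *Sst*, 76.6 ± 22.4 for *Gad2*, 47.1 ± 19.1 for *Gad1* and 18.2 ± 5.95 for *Npy* (SD, n = 15). The ranges of *Sst* and *Gad2* overlapped in TRAP, and *Sst* was above *Gad2* in 14 of 15 libraries. *Slc32a1*, *Pvalb*, *Lhx6* and *Vip* followed with means of 4.21 to 5.51 CPM per kilobase, and each of these neighbors overlapped the next. *Reln* averaged 3.13 and *Calb2* 1.33 CPM per kilobase in TRAP. In input the means were 358 ± 23.6 for *Sst*, 168 ± 22.7 for *Gad2*, 60.7 ± 6.87 for *Gad1* and 52.0 ± 10.6 for *Npy* (SD, n = 16), where *Gad1* and *Npy* overlapped and were in that order in 13 of 16 libraries. *Pvalb*, at 12.1 CPM per kilobase, preceded *Lhx6*, *Vip* and *Slc32a1* in input, again with overlapping ranges, and *Reln* (4.10) and *Calb2* (3.25) came last.

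Within single groups most members were called lower, and several of these calls changed with the processing. In Sh + Flx anxious mice 9 of 10 were called lower in TRAP than in input (26.8% of all genes were called lower), all but *Gad1* (-0.50 ± 0.22, adjusted p = 0.0547). In Sh + Flx mice all 10 were called lower (26.9% of all genes). In Sh mice 8 were called lower (18.8% of all genes), with *Gad1* at -0.03 ± 0.22 (adjusted p = 0.933) and *Reln* at 0.21 ± 0.22 (adjusted p = 0.476). In Gh mice 8 were called lower (21.9% of all genes), with *Gad1* at -0.48 ± 0.24 (adjusted p = 0.101) and *Reln* at -0.49 ± 0.24 (adjusted p = 0.108). When Sh TRAP 2 and 3 were left out, the counts were 10 in Sh + Flx anxious (26.2% of all genes), 10 in Sh + Flx (26.9%), 9 in Sh (25.3%) and 10 in Gh mice (22.8%), and 10 in the mean of the groups (37.4%), and *Slc32a1* was the one not called in Sh (-0.36, adjusted p = 0.149). With summed replicates the counts were 6 in Sh + Flx anxious, 8 in Sh + Flx, 6 in Sh and 8 in Gh mice. The calls lost in that setting were those of *Calb2* (adjusted p = 0.136), *Sst* (0.179) and *Reln* (0.103) in Sh + Flx anxious, *Gad1* (0.154) and *Reln* (0.102) in Sh + Flx, and *Gad2* (0.0784) and *Slc32a1* (0.193) in Sh. Over all genes, calls in either direction also fell with summing, from 8636 to 5784 in Sh + Flx anxious and from 8825 to 6134 in Sh + Flx. They fell from 6828 to 4206 in Sh and from 7177 to 4868 in Gh mice. Scaling by library size alone lost *Calb2* (0.0568) and *Sst* (0.122) in Sh + Flx anxious, *Gad1* in Sh + Flx (0.0848) and *Slc32a1* in Sh (0.232). *Slc32a1* in Sh was not called by DESeq2 (0.0695), with RLE factors (0.0759) or with no filter on low counts (0.051). *Slc32a1* in Sh also lost its call without any 1 of 11 single libraries (adjusted p up to 0.121), *Gad1* in Sh + Flx without TRAP 3 of that group (0.0721) and *Sst* in Sh + Flx anxious without TRAP 1 of that group (0.0706).

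**Figure D2:**
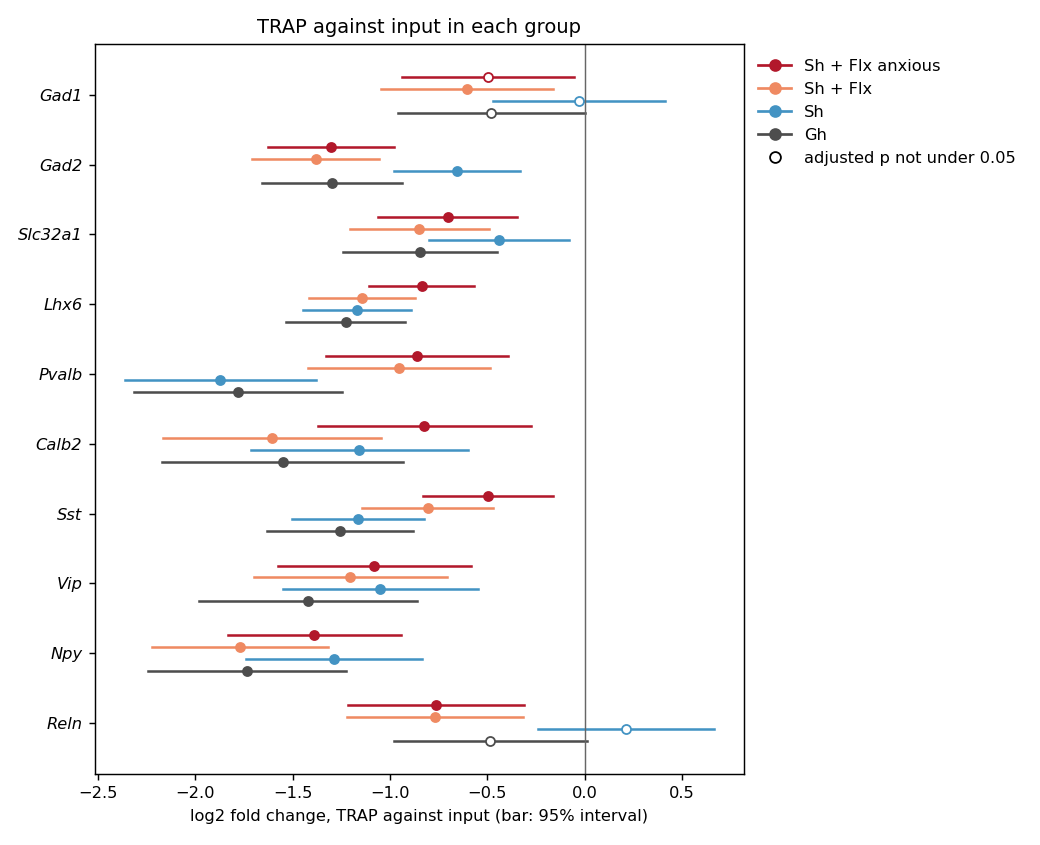
Log2 fold change of TRAP against input for the 10 markers (rows) in the 4 groups (colors), with 95% intervals from the edgeR fit, not adjusted over genes; open points had an adjusted p not under 0.05. All points lie left of 0 but *Reln* in Sh, at 0.21.

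A wider list of 43 other interneuron genes behaved in the same direction in most of its members. Of the 43, 34 were called lower and 5 higher in TRAP than in input, beside 37.4% and 32.3% of all genes. Their median log2 fold change was -0.83, beside -0.07 over all genes. All 7 genes of the somatostatin type were lower, among them the calcium buffer *Calb1* (-0.96 ± 0.06) and the glutamate receptor subunit *Grin3a* (-0.84 ± 0.10). Of 7 genes of the parvalbumin type 5 were lower, with the fast potassium channel *Kcnc2* at -1.10 ± 0.08 and the neuregulin receptor *Erbb4* at -1.06 ± 0.09. Of 7 genes of the Vip and Cck types 5 were lower, among them the cannabinoid receptor *Cnr1* (-1.40 ± 0.06) and the RNA-binding protein *Adarb2* (-0.90 ± 0.09). The neurogliaform genes *Cplx3*, a complexin, and *Lamp5* were lower by log2 fold changes of -1.76 ± 0.14 and -0.44 ± 0.07. Of 15 transcription factors 12 were lower, with *Sox6* at -1.28 ± 0.09 and *Satb1* at -0.75 ± 0.07. The GABA-degrading enzymes *Abat* (-0.83 ± 0.06) and *Aldh5a1* (-0.76 ± 0.06) were lower as well. Each of these had an adjusted p of 9.33e-07 or below.

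The 5 exceptions were higher in TRAP. The orphan nuclear receptor *Nr2f2* had 82.6, 192 and 227 CPM (lowest, median, highest) in TRAP, against 31.5, 38.3 and 49.5 CPM in input, a log2 fold change of 2.21 ± 0.09 (adjusted p = 1.06e-20). *Maf*, a transcription factor, had 59.8, 147 and 179 CPM in TRAP and 33.7, 36.3 and 42.1 CPM in input (1.87 ± 0.09, adjusted p = 1.08e-18). *Ndnf*, a secreted protein of neurogliaform cells (1.45 ± 0.10, adjusted p = 6.53e-14), *Pthlh*, a hormone-like peptide (1.39 ± 0.19, adjusted p = 7.36e-08), and *Chat*, which makes acetylcholine (0.95 ± 0.21, adjusted p = 0.000148), completed the group. Markers of some other cells moved the same way: besides the fibroblast markers, all 5 endothelial markers were higher in TRAP, with sums of 27.0 to 64.2 CPM in TRAP and 4.76 to 9.14 CPM in input. The summed markers of oligodendrocytes, astrocytes and striatal spiny neurons went the other way. Their medians were 684, 2299 and 412 CPM in TRAP, against 1422, 3313 and 733 CPM in input. Microglia markers had median sums of 42.2 CPM in TRAP and 37.9 CPM in input. The part of other cells in the 5 genes was not tested.

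**Figure D3:**
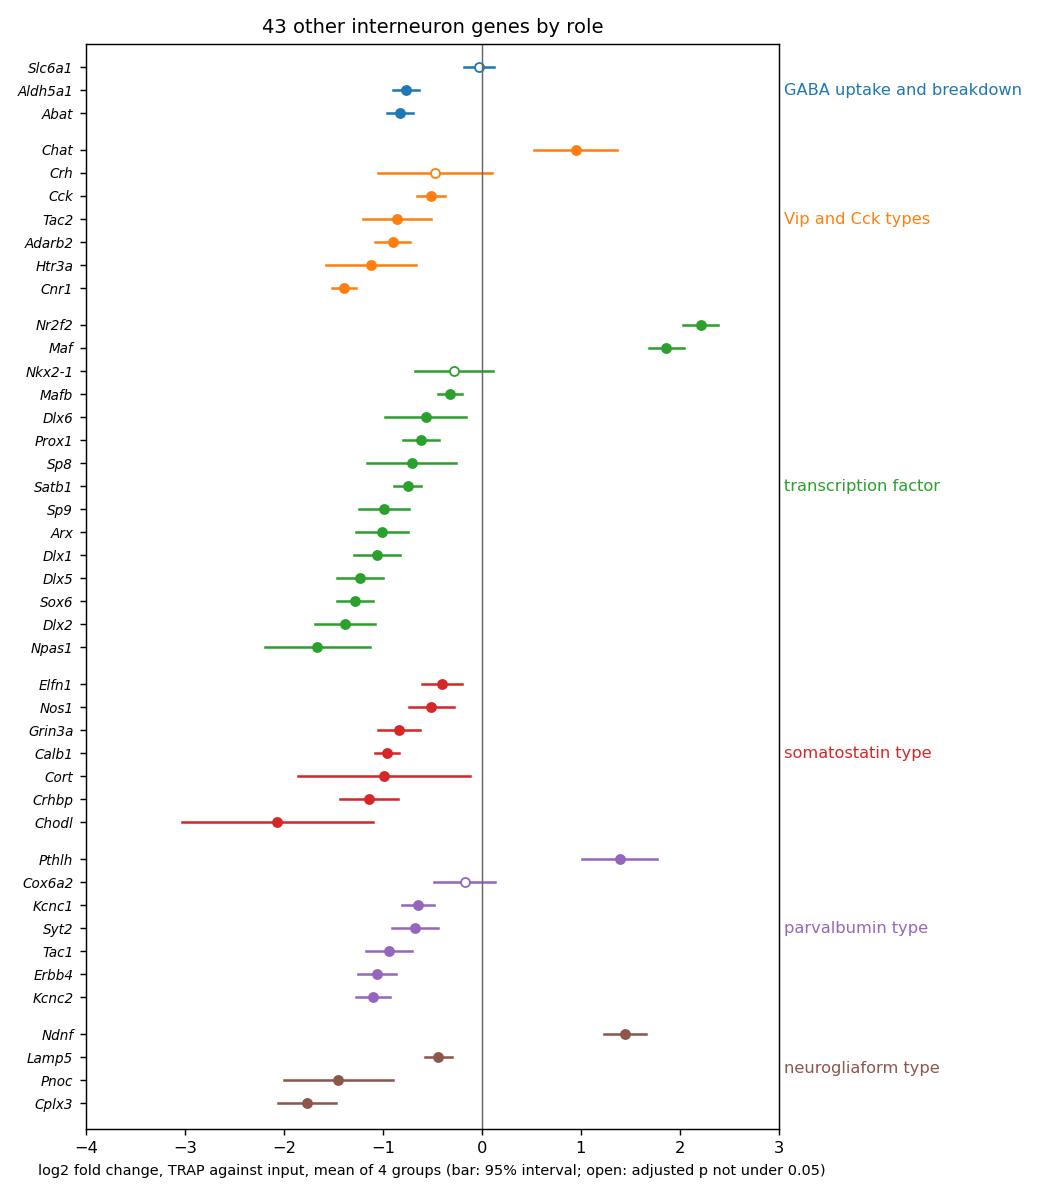
Log2 fold change of TRAP against input, mean of 4 groups, for 43 other interneuron genes (rows) grouped by role, with 95% intervals from the edgeR fit. Most points lie left of 0; *Nr2f2*, *Maf*, *Ndnf*, *Pthlh* and *Chat* lie right of it.

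The input libraries show how the markers of the whole cortex differed between housing and treatment. *Gad2* and *Npy* were higher in both fluoxetine groups than in both vehicle groups, and in no other member did all 8 fluoxetine input libraries stand above all 8 vehicle ones (1.89% of all genes did). *Gad2* had 1069.9, 1049, 1078 and 1037 CPM in Sh + Flx anxious input and 1092, 1032, 1031 and 1129 CPM in Sh + Flx input. It had 818, 844, 842 and 823 CPM in Sh input and 788, 808, 814 and 856 CPM in Gh input. The fluoxetine libraries thus began at 1031 CPM and the vehicle libraries ended at 856 CPM. Against Sh, the log2 fold change of *Gad2* was 0.34 ± 0.04 in Sh + Flx anxious (adjusted p = 3.73e-06) and 0.36 ± 0.04 in Sh + Flx (adjusted p = 6.83e-06). Against Gh, it was 0.37 ± 0.04 in Sh + Flx anxious (adjusted p = 5.66e-07) and 0.39 ± 0.04 in Sh + Flx (adjusted p = 1.33e-06). The background of these comparisons was 6.86% and 2.62% of 15690 genes called against Sh, and 11.5% and 5.31% against Gh. Both fluoxetine groups were set against the same Sh and the same Gh libraries, so that these values are not independent.

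*Npy* had 33.7, 32.5, 33.5 and 42.4 CPM in Sh + Flx anxious input and 35.1, 31.4, 31.5 and 35.0 CPM in Sh + Flx input. It had 24.4, 22.3, 20.5 and 25.8 CPM in Sh input and 23.9, 28.3, 22.2 and 28.6 CPM in Gh input. Against Sh, *Npy* was higher by 0.61 ± 0.10 on the log2 scale in Sh + Flx anxious (adjusted p = 0.000193) and by 0.51 ± 0.10 in Sh + Flx (adjusted p = 0.00363). The differences from Gh were smaller, at 0.46 ± 0.10 (adjusted p = 0.0023) in Sh + Flx anxious and 0.36 ± 0.10 (adjusted p = 0.0309) in Sh + Flx. With replicates summed to 2 libraries per group, *Gad2* passed in all 4 comparisons, while *Npy* missed the threshold in Sh + Flx against Sh (adjusted p = 0.0878) and against Gh (adjusted p = 0.187). Summing also cut the calls over all genes in these comparisons, from 411 to 59 and from 833 to 148. The call of *Npy* in Sh + Flx against Gh was also lost without any 1 of Sh + Flx input 1 or 4 or Gh input 1 or 3 (adjusted p = 0.0847 to 0.13).

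*Gad1*, the other decarboxylase, gave no call in input. It had 295, 244, 205 and 237 CPM in Sh + Flx anxious input and 265, 277, 246 and 231 CPM in Sh + Flx input. It had 222, 255, 243 and 277 CPM in Sh input and 232, 212, 205 and 212 CPM in Gh input. Against Sh its log2 fold change was -0.03 ± 0.08 in Sh + Flx anxious (adjusted p = 0.913) and 0.02 ± 0.08 in Sh + Flx (adjusted p = 0.948). Against Gh it was 0.19 ± 0.08 in Sh + Flx anxious (adjusted p = 0.144) and 0.24 ± 0.08 in Sh + Flx (adjusted p = 0.0842). *Slc32a1*, the vesicle transporter, had log2 fold changes against Sh of 0.13 ± 0.11 in Sh + Flx anxious (adjusted p = 0.586) and 0.24 ± 0.11 in Sh + Flx (adjusted p = 0.326). The peptides *Sst* and *Vip* passed in no input comparison. The log2 fold changes of *Sst* against Sh were 0.05 ± 0.07 in Sh + Flx anxious and 0.04 ± 0.07 in Sh + Flx, and the input libraries of *Sst* all lay between 192 and 245 CPM.

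**Figure D4:**
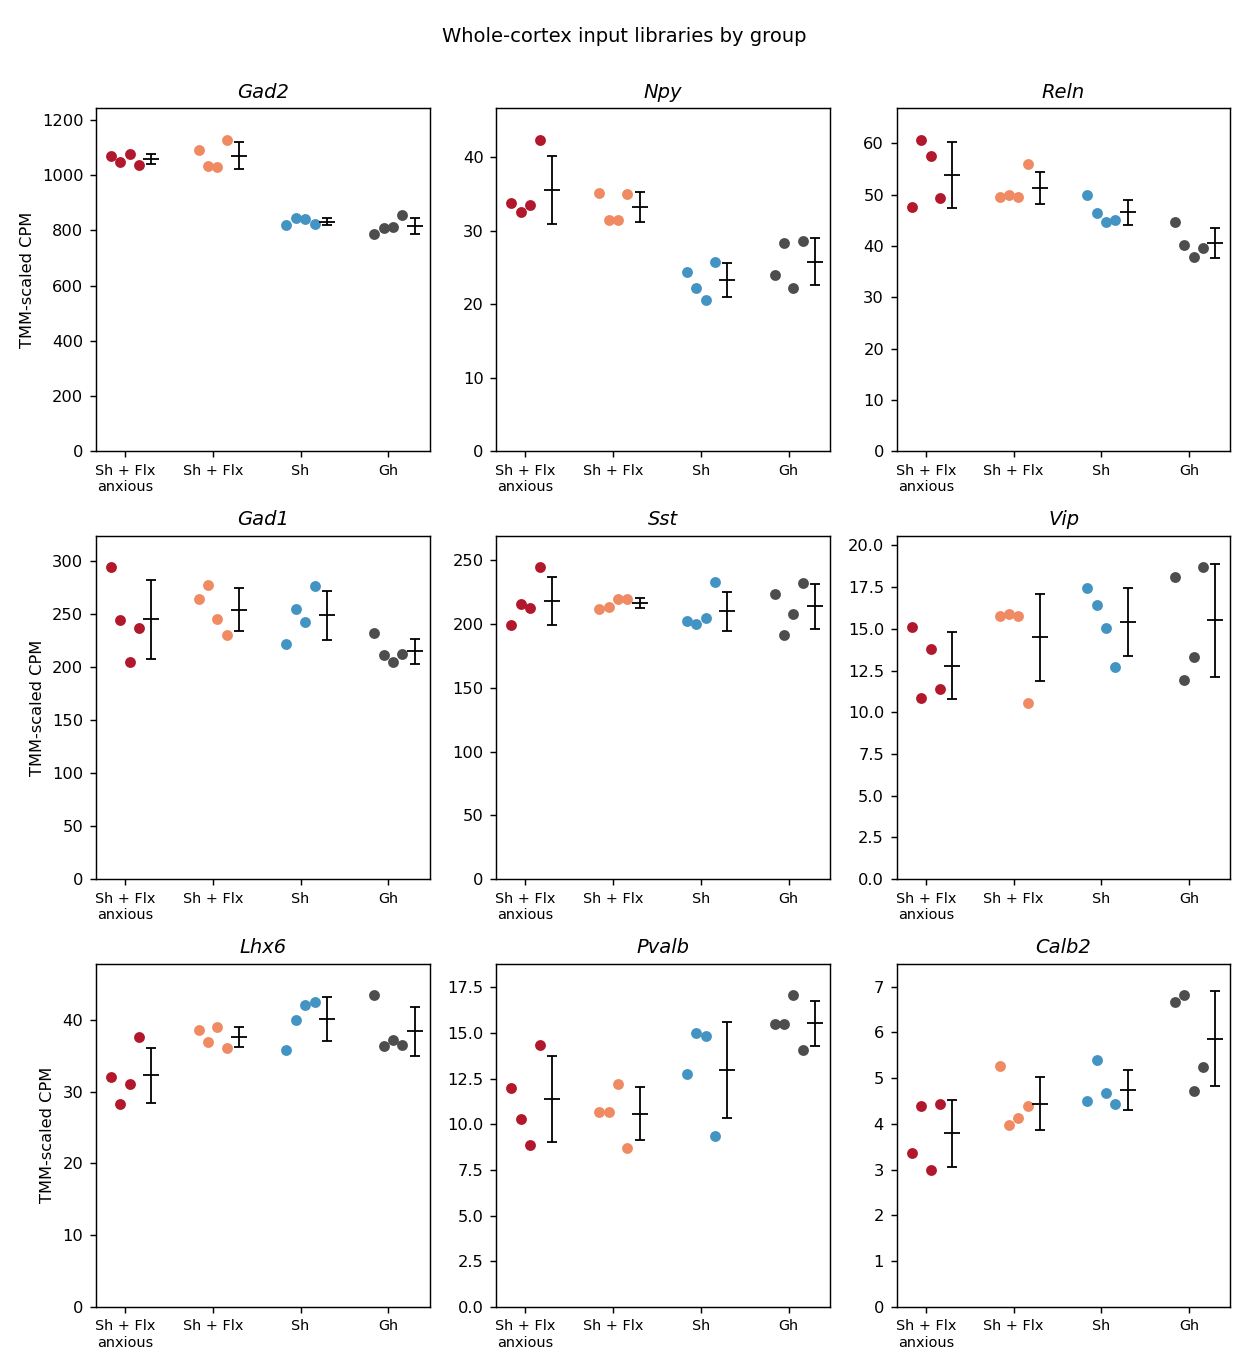
TMM-scaled CPM of 9 markers in the 4 input libraries of each group; points are libraries and bars the mean ± SD. *Gad2* and *Npy* form an upper set in the fluoxetine groups (1031 to 1129 and 31.4 to 42.4 CPM) and a lower set in Sh and Gh, while *Sst* does not.

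Other members moved in input against Gh. *Reln* had 47.5, 60.7, 57.6 and 49.3 CPM in Sh + Flx anxious input and 49.5, 50.02, 49.5 and 55.9 CPM in Sh + Flx input. It had 49.97, 46.4, 44.7 and 45.0 CPM in Sh input and 44.7, 40.3, 37.8 and 39.6 CPM in Gh input. Relative to Gh it was higher by 0.40 ± 0.08 on the log2 scale in Sh + Flx anxious (adjusted p = 0.00132) and by 0.33 ± 0.08 in Sh + Flx (adjusted p = 0.0148). The Sh libraries lay in between, all above Gh (2.54% of all genes were), but this difference was not called (0.20 ± 0.08, adjusted p = 0.36). Without Sh + Flx input 4 or Gh input 3, *Reln* in Sh + Flx against Gh was not called (adjusted p = 0.0719 and 0.0617).

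*Pvalb*, *Calb2* and *Lhx6* were lower in some of the fluoxetine comparisons. *Pvalb* had 12.02, 10.3, 8.86 and 14.4 CPM in Sh + Flx anxious input and 10.7, 10.7, 12.2 and 8.67 CPM in Sh + Flx input. It had 12.7, 15.0, 14.8 and 9.37 CPM in Sh input and 15.5, 15.5, 17.1 and 14.1 CPM in Gh input. Against Gh it fell by 0.44 on the log2 scale in Sh + Flx anxious (-0.44 ± 0.15, adjusted p = 0.0458) and by 0.56 in Sh + Flx (-0.56 ± 0.15, adjusted p = 0.021). *Calb2* had 3.36, 4.40, 2.98 and 4.43 CPM in Sh + Flx anxious input, against 6.67, 6.82, 4.73 and 5.24 CPM in Gh input, a log2 fold change of -0.63 ± 0.18 (adjusted p = 0.0176). *Lhx6* had 32.1, 28.3, 31.1 and 37.6 CPM in Sh + Flx anxious input, against 35.8, 40.0, 42.2 and 42.5 CPM in Sh input, and fell by 0.32 on the log2 scale (-0.32 ± 0.09, adjusted p = 0.0242). With summed replicates none of *Pvalb*, *Calb2* and *Lhx6* was called. Summing also cut the calls over all genes in Sh + Flx anxious, from 1802 to 685 against Gh and from 1076 to 381 against Sh. In Sh + Flx against Gh they fell from 833 to 148. Single libraries also decided the calls of these members. *Lhx6* was not called without any 1 of Sh + Flx anxious input 1, 2 or 3 or Sh input 2, 3 or 4 (adjusted p = 0.0537 to 0.0949), nor *Calb2* without Sh + Flx anxious input 1 or 3 or Gh input 1 or 2 (0.0563 to 0.0747). *Pvalb* in Sh + Flx against Gh was not called without Sh + Flx input 1 or 4 or Gh input 3 (0.059 to 0.093), and in Sh + Flx anxious against Gh without any 1 of 9 libraries (0.0539 to 0.179): Sh + Flx anxious input 1, 2 and 3, Sh + Flx input 1 and 2, Sh input 1 and Gh input 1, 2 and 3.

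In total, fluoxetine groups against Sh had 3 of 10 members called in Sh + Flx anxious (6.86% of all genes) and 2 in Sh + Flx (2.62%), and against Gh 5 in Sh + Flx anxious (11.5%) and 4 in Sh + Flx (5.31%). Sh against Gh had none called by edgeR or DESeq2 (13 of 15690 genes were called, 0.0829%), and 2 members had an unadjusted p under 0.05 (1765 of all genes did). Sh + Flx anxious against Sh + Flx had none called by either tool (20 genes, 0.127%), and 1 member had an unadjusted p under 0.05 (1251 of all genes did). Between these fluoxetine groups the log2 difference of *Gad2* was -0.02 ± 0.04 and that of *Npy* 0.10 ± 0.10.

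Markers of other cells also differed in these input libraries. The summed level of 6 oligodendrocyte markers was 985 to 1293 CPM in Sh + Flx anxious and 1253 to 1347 CPM in Sh + Flx, against 1498 to 1822 CPM in Sh and 1631 to 1857 CPM in Gh. All 6 were called lower in Sh + Flx anxious against Sh and 2 of 6 in Sh + Flx against Sh. Of all genes, 2.87% were called lower and 3.98% higher in Sh + Flx anxious against Sh. In Sh + Flx against Sh these shares were 0.797% and 1.82%. The sum of 9 markers of striatal spiny neurons, GABA cells that also use *Gad2*, was 574 to 756 CPM in Sh + Flx anxious and 741 to 841 CPM in Sh + Flx, against 725 to 828 CPM in Sh and 632 to 720.2 CPM in Gh. Of these 9, 6 were called lower and 1 higher in Sh + Flx anxious against Sh, and 1 was called higher in Sh + Flx against Sh. The part of these shifts in the marker levels was not tested.

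Of the 43 other interneuron genes, 5 were called higher and 2 lower in Sh + Flx anxious against Sh input (6.86% of all genes were called), and 3 higher and 2 lower in Sh + Flx against Sh (2.62%). Their median log2 fold changes were -0.04 and -0.05. The genes named next were chosen after their values were seen. *Lamp5*, a membrane protein of neurogliaform cells, had 43.4 to 58.3 CPM in Sh + Flx anxious input and 57.2 to 67.4 CPM in Sh + Flx input, against 77.6 to 85.2 CPM in Sh and 76.2 to 91.3 CPM in Gh. Its log2 fold change against Sh was -0.70 ± 0.08 in Sh + Flx anxious (adjusted p = 1.12e-06) and -0.41 ± 0.08 in Sh + Flx (adjusted p = 0.0034). *Nos1*, the neuronal nitric oxide synthase, had 14.7 to 19.8 CPM in Sh + Flx anxious and 12.7 to 17.3 CPM in Sh + Flx, against 8.44 to 12.2 CPM in Sh and 7.67 to 9.84 CPM in Gh. It was higher than in Sh by 0.76 ± 0.13 in Sh + Flx anxious (adjusted p = 0.000346) and by 0.56 ± 0.14 in Sh + Flx (adjusted p = 0.0182) on the log2 scale. *Cnr1* was the one gene of the 43 called in Sh against Gh input, at 0.30 ± 0.06 (adjusted p = 0.0347).

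In the TRAP libraries, edgeR called 1 member between groups, *Sst*, where DESeq2 also called *Reln* in Sh + Flx anxious against Sh (-0.81, adjusted p = 0.0446) and in Sh + Flx against Sh, and the highest levels of *Gad1*, *Gad2* and *Reln* were those of Sh TRAP 2 and 3. *Gad1* had 164, 155, 156 and 219 CPM in Sh + Flx anxious TRAP and 179, 162, 135 and 194 CPM in Sh + Flx TRAP. It had 127, 305, 411 and 134 CPM in Sh TRAP and 156, 157 and 149.8 CPM in Gh TRAP. *Gad2* had 428, 429, 438 and 421 CPM in Sh + Flx anxious TRAP and 459, 379, 325 and 479.8 CPM in Sh + Flx TRAP, against 349.9, 662, 756 and 344 CPM in Sh TRAP and 354, 351 and 291 CPM in Gh TRAP. In both genes Sh TRAP 2 and 3 stood above all other TRAP libraries, and Sh TRAP 1 and 4 did not. *Reln* had the same form, with 28.2, 81.1, 80.4 and 26.9 CPM in Sh TRAP, against 25.6, 33.7 and 27.4 CPM in Gh TRAP. *Sst* was lowest in the same libraries, with 114, 78.2, 74.7 and 107 CPM in Sh TRAP, against 89.7, 80.1 and 98.4 CPM in Gh TRAP. The part of the low *S100a10* and high nuclear RNA of these libraries in the marker levels was not tested.

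Sh against Gh in TRAP gave 0 calls among 16754 genes by edgeR (0%). Without adjustment 2634 genes, 3 of them members, had a p under 0.05. DESeq2 called 209 genes and none of the members. The log2 fold changes of *Gad1*, *Gad2* and *Reln* were 0.67 ± 0.31, 0.67 ± 0.24 and 0.91 ± 0.33, with adjusted p-values of 0.309, 0.227 and 0.227. With Sh TRAP 2 and 3 left out they were -0.26, 0.04 and -0.09, so that *Gad1* and *Reln* changed sign. The 95% intervals of the remaining 7 members all included 0.

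*Sst* had 108, 167, 197 and 146 CPM in Sh + Flx anxious TRAP, against 114, 78.2, 74.7 and 107 CPM in Sh TRAP, a log2 fold change of 0.73 ± 0.22 (adjusted p = 0.0423, where 10.5% of genes were called). The lowest Sh + Flx anxious library lay below the highest Sh library. Leaving out Sh TRAP 2 and 3 gave 0.49 (adjusted p = 0.224), and no member was called (4.53% of genes were). The call was also lost without any 1 of 8 libraries, Sh + Flx anxious 2, 3 or 4, Sh + Flx 1, Sh 2 or 3 and Gh 1 or 4 (adjusted p = 0.0537 to 0.128), and with summed replicates (0.358). Summing left 0 of 17296 genes called in this comparison. With Sh TRAP 2 and 3 left out, *Sst* in Sh + Flx anxious against Gh TRAP passed instead (0.78 ± 0.20, adjusted p = 0.0491, with 2.21% of genes called), which with all libraries was 0.79 ± 0.24 (adjusted p = 0.339, 0.0716% called). In that comparison *Gad2*, *Sst* and *Npy* had every Sh + Flx anxious library above every Gh library (7.38% of all genes did).

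In Sh + Flx against Sh TRAP no member was called by edgeR (6.46% of genes were), and 1 had an unadjusted p under 0.05 (4472 of 16754 genes did). DESeq2 called *Reln* lower (-0.89, adjusted p = 0.0309), as 1 of 2400 genes called. By edgeR the value of *Reln* was -0.86 ± 0.30 (adjusted p = 0.0785), and without Sh TRAP 2 and 3 it was 0.13. *Pvalb* and *Npy* had every Sh + Flx anxious TRAP library above every Sh one (8.96% of genes did), but neither was called. *Pvalb* had 5.40 to 7.05 CPM in Sh + Flx anxious TRAP, against 2.997 to 4.31 CPM in Sh TRAP (0.82 ± 0.31, adjusted p = 0.0957). *Npy* had 11.05 to 15.9 CPM in Sh + Flx anxious TRAP, against 8.38 to 10.6 CPM in Sh TRAP (0.52 ± 0.30, adjusted p = 0.26). Sh + Flx against Gh (0.00597% of genes called) and Sh + Flx anxious against Sh + Flx (0%) gave no called member by edgeR or DESeq2, and none had an unadjusted p under 0.05 (1029 and 724 of all genes did).

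**Figure D5:**
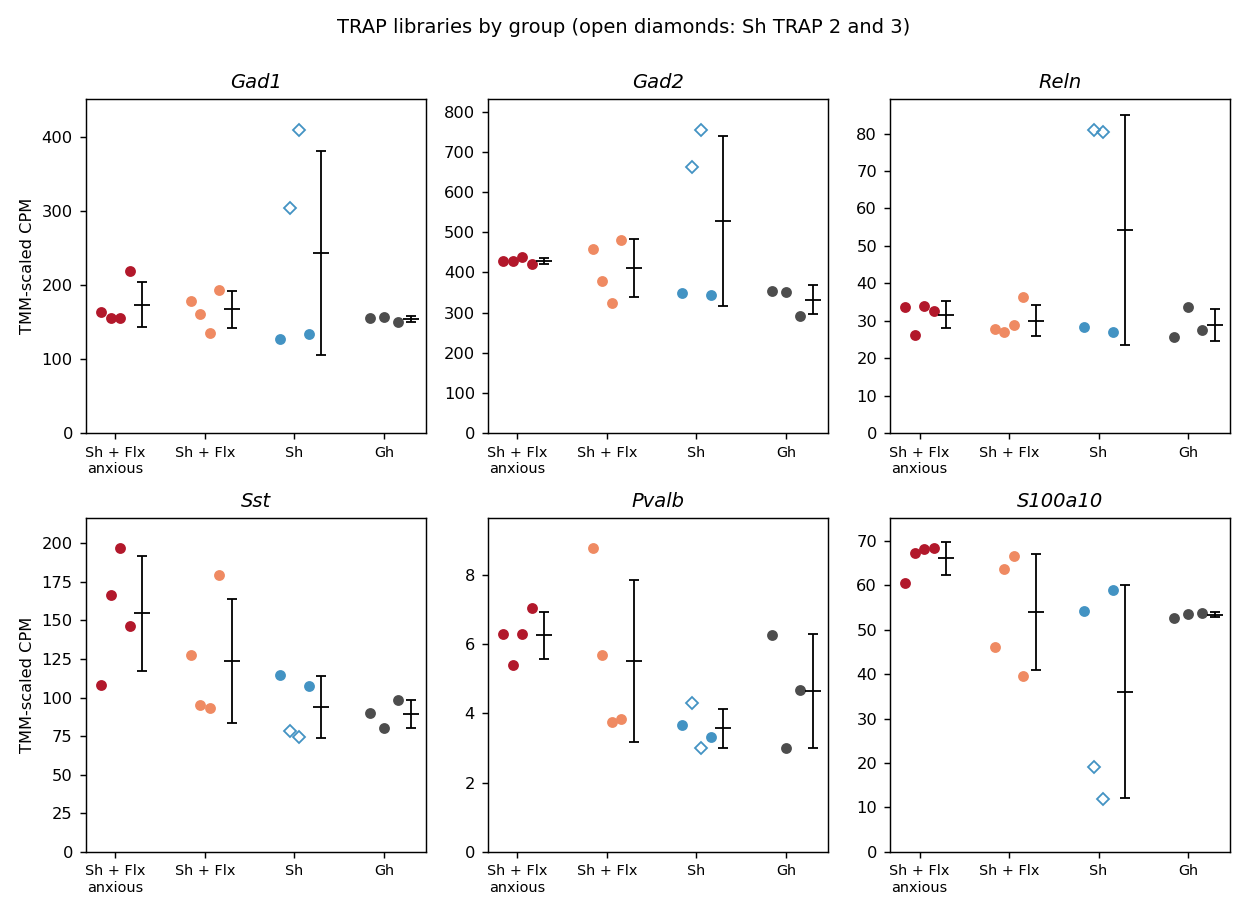
TMM-scaled CPM of 5 markers and of *S100a10* in the TRAP libraries of each group; points are libraries, open diamonds Sh TRAP 2 and 3, and bars the mean ± SD. In Sh, *Gad1*, *Gad2* and *Reln* are high and *S100a10* low in the same 2 libraries (19.1 and 11.9 CPM of *S100a10*).

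Of the wider list of 43 in TRAP, 1 gene was called higher and 3 lower in Sh + Flx anxious against Sh (10.5% of all genes were called), and 1 higher and 1 lower in Sh + Flx against Sh (6.46%). *Cck*, the cholecystokinin gene, which pyramidal cells also use, had 280.4, 235, 287 and 329 CPM in Sh + Flx anxious TRAP and 233, 183, 187 and 293 CPM in Sh + Flx TRAP, against 157, 129, 126 and 154 CPM in Sh TRAP. In Gh TRAP it had 173, 126 and 203 CPM. It was higher than in Sh by 0.998 ± 0.18 in Sh + Flx anxious (adjusted p = 0.00505) and by 0.66 ± 0.18 in Sh + Flx (adjusted p = 0.037) on the log2 scale. After removal of Sh TRAP 2 and 3 these were 0.87 (adjusted p = 0.0153) and 0.53 (adjusted p = 0.136). *Erbb4* had 16.3, 18.1, 20.2 and 16.3 CPM in Sh + Flx anxious TRAP and 11.9, 19.0, 12.6 and 17.0 CPM in Sh + Flx TRAP, against 29.5, 46.1, 58.7 and 25.3 CPM in Sh TRAP. In Gh TRAP it had 15.0, 21.2 and 21.1 CPM, below every Sh TRAP library. Of 16754 genes, 6.46% had every Sh TRAP library above every Gh one. As edgeR called 0 genes in Sh against Gh TRAP, *Erbb4* was not called there. Its log2 fold changes against Sh were -1.17 ± 0.24 (adjusted p = 0.00937) and -1.41 ± 0.25 (adjusted p = 0.0108), and without Sh TRAP 2 and 3 -0.62 (adjusted p = 0.0839) and -0.86 (adjusted p = 0.0346). *Abat*, the GABA transaminase (-0.65 ± 0.18, adjusted p = 0.0279), and *Nkx2-1*, the transcription factor that specifies the medial eminence (-1.75 ± 0.51, adjusted p = 0.0371), were lower in Sh + Flx anxious with all libraries. Without Sh TRAP 2 and 3 neither was called (-0.24, adjusted p = 0.27, and -0.47, adjusted p = 0.554).

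Whether TRAP and input changed alike was tested directly in the joint fit. By edgeR, no member was called for a difference between its TRAP change and its input change in Sh + Flx anxious against Sh (7.31% of 17015 genes were), Sh + Flx against Sh (2.97%) or Sh against Gh (0.0235%). By unadjusted p under 0.05 there were 4, 3 and 2 members, beside 4165, 3756 and 2190 of all 17015 genes. DESeq2 called 3 members in Sh + Flx anxious against Sh and 2 in Sh + Flx against Sh, beside 1786 and 1069 of all genes. *Gad2*, higher in input under fluoxetine, had TRAP changes below its input changes by -0.65 ± 0.22 in Sh + Flx anxious (adjusted p = 0.0682) and -0.73 ± 0.22 in Sh + Flx (adjusted p = 0.0601). Without Sh TRAP 2 and 3 its TRAP log2 fold changes against Sh were 0.32 and 0.25, against 0.34 and 0.36 in input. The difference for *Reln* was -0.98 ± 0.31 in both comparisons (adjusted p = 0.0513 in Sh + Flx anxious and 0.0698 in Sh + Flx), and without Sh TRAP 2 and 3 it was 0.04 and 0.02. The difference for *Pvalb* was 1.01 ± 0.33 in Sh + Flx anxious (adjusted p = 0.0542) and 0.92 ± 0.33 in Sh + Flx (adjusted p = 0.103), and 1.08 and 0.97 without those libraries (adjusted p = 0.091 and 0.175). *Sst* had 0.67 ± 0.23 in Sh + Flx anxious (adjusted p = 0.0714), and 0.47 without them.

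The mean profile of *Gad1*, *Gad2* and *Slc32a1* over the 8 group means was low in TRAP, less so in Sh TRAP, and highest in the input of the fluoxetine groups. Members aside, the 5 genes nearest to it were *Lrch2*, *Kcns2*, *Ddhd1*, *Ero1lb* and *Trim9*, at root-mean-square distances of 0.05 to 0.07 on the log2 scale. Of the 3 members that form the profile, *Slc32a1* was at 0.06, *Gad1* at 0.17 and *Gad2* at 0.22. *Reln* was at 0.18, and *Npy* was farthest of the members at 0.42. By distance among all genes of the joint fit, *Slc32a1* ranked 4, *Gad1* 997, *Reln* 1131 and *Gad2* 1923. Many other genes thus lay nearer to this mean than *Gad1*, *Gad2* or *Reln*. The Sh TRAP means in this profile include Sh TRAP 2 and 3.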

How the data were processed

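RNA was amplified with a kit without strand marking, and reads were mapped by the authors to mm10 (GRCm38) using TopHat2 2.0.11. The deposited files hold raw counts per gene, 1 file a library. The sources used here name neither the counting program nor its strand setting. The authors' series tables, which hold group means on an FPKM scale and the fold changes and p-values of their own comparisons, were not used. Each count file ends in 5 summary lines without a gene, which entered neither library sizes nor tests (the line for reads in no feature held 25.2% to 58.6% of a TRAP file and 45.1% to 55.2% of an input file).

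edgeR 4.0.16 in R 4.3.3 (TMM factors, filterByExpr, glmQLFit and glmQLFTest, no covariates) was fitted to 31 libraries jointly (17015 genes), to 15 TRAP libraries (16754) and to 16 input libraries (15690). Adjusted p-values are Benjamini-Hochberg over all genes of a fit, with a threshold of 0.05. CPM come from the joint normalization. Gh TRAP 2 and 3 were summed. The members, the lists and the rules below were chosen with earlier results of these data known. From the wider list, up to 2 genes per role and direction were named for TRAP against input and up to 4 per direction for each of 3 TRAP comparisons, by smallest p. The genes of like pattern were the 5 nearest by distance of group means, predicted models passed over. Alternatives were DESeq2 1.42.0, RLE factors, library size alone, no filter, separate Gh TRAP 2 and 3, no Sh TRAP 2 and 3, each library left out, a replicate block and summed replicates. Tables and plots were made with Python 3.11.15, numpy 2.4.6, pandas 2.3.3, scipy 1.17.1 and matplotlib 3.10.9.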

Additional observations from a re-analysis of the deposited data

Results flagged for a closer look

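Among 70 sets of 4 libraries (a member in a group and fraction), 7 held a single value far from the other 3 by Dixon's criterion. Chance gives about 1 in 20. *Gad1* was at 219.4 CPM in Sh + Flx anxious TRAP 4, against 155.4 to 163.6 CPM in the others. *Vip* was at 4.658 CPM in Sh + Flx anxious TRAP 3, against 6.455 to 6.628 CPM. *Npy* was at 42.39 CPM in Sh + Flx anxious input 4, against 32.52 to 33.74 CPM, which places that library farther above the vehicle libraries. Sh + Flx input 4 was far from its group in 2 genes, with *Vip* at 10.55 CPM, against 15.74 to 15.87 CPM, and *Reln* at 55.89 CPM, against 49.5 to 50.02 CPM. *Sst* was at 233.1 CPM in Sh input 4, against 199.8 to 204.9 CPM, and *Lhx6* at 43.5 CPM in Gh input 1, against 36.43 to 37.18 CPM. Sh TRAP 2 and 3, being a pair, are not found by this criterion.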

How the results depend on the processing

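All 10 members were called lower in TRAP than in input when any 1 library was left out (10 to 10), and 9 to 10 under 8 other settings. Leaving out single libraries gave 0 to 3 members called for the TRAP change minus the input change in Sh + Flx against Sh and 0 to 4 in Sh + Flx anxious against Sh, 0 to 2 in TRAP for both of these comparisons, and, in input against Gh, 1 to 5 in Sh + Flx and 3 to 6 in Sh + Flx anxious. Over all genes, the difference of changes gave 96 to 2114 and 552 to 2698 calls. The TRAP comparisons gave 179 to 2418 and 611 to 2703, and those in input 482 to 865 and 1392 to 1792.

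DESeq2 called 2 members for the TRAP change minus the input change in Sh + Flx against Sh and 3 in Sh + Flx anxious against Sh, where edgeR called 0. Over all genes DESeq2 called 1069 and 1786 of 17015 there. In TRAP DESeq2 called 1 in Sh + Flx against Sh and 2 in Sh + Flx anxious against Sh, beside 2400 and 2787 of 16754 genes. With Gh TRAP 2 and 3 kept separate, 1 member was called for the TRAP change minus the input change in Sh + Flx anxious against Sh (1335 of 16744 genes were). With summed replicates, 0 members were called in Sh + Flx anxious against Sh TRAP, 1 in Sh + Flx against Gh input, 3 in Sh + Flx anxious against Gh input and 1 in Sh + Flx against Sh input. Over all genes, summing left 0 calls in that TRAP comparison and 148, 685 and 59 in those of input. With single libraries these were 1757, 833, 1802 and 411.

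Without Sh TRAP 2 and 3, 8 of the TRAP log2 fold changes between groups changed sign in *Gad1*, *Gad2* and *Reln*, none of them called by edgeR: *Gad1* (-0.26) and *Reln* (-0.091) in Sh against Gh, *Gad1* (0.36), *Gad2* (0.25) and *Reln* (0.13) in Sh + Flx against Sh, and *Gad1* (0.42), *Gad2* (0.32) and *Reln* (0.21) in Sh + Flx anxious against Sh. Differences of *Lhx6*, *Npy* and *Calb2*, also not called, changed sign too. That setting called 1 member in Sh + Flx anxious against Gh TRAP and 0 in Sh + Flx anxious against Sh TRAP. Beyond what the left-out libraries hold, the cause was not tested.

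Same-numbered libraries shared little of their deviations from group means. Between groups, correlations over 0.1 were found in 2 of 24 same-numbered pairs of TRAP libraries and in 0 of 24 of input. The 16 same-numbered pairs of TRAP and input in a group had correlations of -0.025 to 0.042. Such values cannot show whether a TRAP and an input library came from the same pool. With a replicate block 0 members were called in Sh + Flx anxious against Sh TRAP, where *Sst* was at 0.76 on the log2 scale (adjusted p = 0.0596), and *Pvalb* in Sh + Flx anxious against Gh input had -0.43 (adjusted p = 0.0713). The other 67 member results followed stayed on the same side of the threshold.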
